A study of Homo sapiens with 21 samples.

Results

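The genes examined here encode 5 receptor tyrosine kinases and a ligand through which a tumor cell can keep growth signals running when another receptor is blocked: AXL, TYRO3 and MERTK (together the TAM receptors), their ligand GAS6, the hepatocyte growth factor receptor MET and its relative MST1R, also called RON. Members were taken by gene symbol from the count table, and all 6 of 6 were found among 53515 genes. They were followed by RNA sequencing through 17 cancer cell lines in 21 libraries, of which 7 lines were parental and 10 were resistant derivatives, made by others with doses of the drug that rose over months. The liver line HepG2 gave the sorafenib-resistant HepG2S1 and HepG2S3. The pancreatic line PancVB gave the 5-fluorouracil-resistant PancB1Q and PancB1V. The lung line HCC4006 was present as 2 parental lines, HCC4006P1 with its erlotinib-resistant derivative HCC4006ER, and HCC4006P2 with its gefitinib-resistant derivative HCC4006GR. A further lung line, HCC827P, gave the gefitinib-resistant HCC827GR. The ovarian line UWB1.289 gave the olaparib-resistant U10 and U100, and the ovarian line IGROV-1 gave the cisplatin-resistant IGROV-1/CDDP. HepG2 and its derivatives were grown in William's E medium and all other lines in RPMI medium, both with 10% fetal bovine serum. Whether the drugs were present when RNA was taken is not given in the sources used here, so a line and its drug cannot be told apart. HepG2, HepG2S3, HCC4006P1 and HCC4006ER had 2 libraries, and the other 13 lines had 1.

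The TAM receptors bind GAS6, a vitamin K dependent protein that also binds phosphatidylserine on dying cells, and they are known in macrophages and epithelia for clearing such cells and for damping inflammation. AXL is known in carcinomas as a receptor of the mesenchymal state, and both AXL and MET are known bypass receptors, because their signals can replace those of a blocked EGFR (epidermal growth factor receptor). MET is activated by HGF and MST1R by MST1 (macrophage-stimulating protein), both of which are secreted as inactive precursors and cut by proteases. AXL and MET protein, phosphorylation and shedding were not measured here, and all values below are RNA.

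Libraries held between 9851195 and 36639473 counts on genes, so that 3 counts, taken as the smallest detected number, stood for 0.0819 to 0.305 CPM (counts per 1000000 counts on genes). Replicate 1 of HCC4006P1 lacked counts for most of chromosome 7 and for chromosomes 8, 9 and X and the mitochondrial genome, with 19 counts left over 8696 genes. In that stretch, 1679 of 1679 genes with at least 50 counts in replicate 2 had none, against 1 of 9777 genes elsewhere. MET, HGF and EGFR lie in it, so their level in HCC4006P1 rests on replicate 2 alone. The missing 18.1% of counts raise the CPM of all other genes in replicate 1 by 22.1%. The tissue labels were checked against marker genes. The 5 liver markers summed to 25250 CPM in HepG2, to 0 in HepG2S1, where 0 counts allow up to 0.305 CPM a gene, and to 22.7 in HepG2S3, while 3 fibroblast markers summed to 8.13, 536 and 388 CPM. The 3 lung markers were each under 1 CPM in HCC4006P1 and HCC4006ER, where they summed to 0.423 and 0.535 CPM, but summed to 266 CPM in HCC4006P2. They were lower in the gefitinib-resistant lines, at 21.2 CPM in HCC4006GR and at 28.1 CPM in HCC827GR against 91.7 CPM in HCC827P. The fibroblast markers also moved with HCC4006ER, from 0.183 to 163 CPM. The 4 pancreas and duct markers summed to 3224, 1139 and 906 CPM in PancVB, PancB1Q and PancB1V. Of these, PDX1 was under 1 CPM in each line. KRT7, from the same list, was at 1.03 CPM in HepG2 against 2733 and 2912 CPM in HepG2S1 and HepG2S3. MUC1 went the same way, at 0.0136 CPM in HepG2 against 121.7 and 22.9 CPM in HepG2S1 and HepG2S3. KRT19 went the other way, at 346.7 CPM in HepG2 against 101.8 and 163.6 CPM, and PDX1 was under 1 CPM in all of these. The 4 ovarian and Mullerian markers summed to 467 to 748 CPM in the ovarian lines, but WT1 was under 1 CPM in each. They also summed to 643 CPM in HCC827P, but 618 CPM of this was MUC16. In IGROV-1, MUC16 was at 0.473 CPM and PAX8 at 664 CPM, so the sums rest on different genes. Of 4 macrophage and leukocyte markers, PTPRC, which all leukocytes carry, stayed under 1 CPM in all 17 lines, but others did not. CD68 was at 42.6 CPM in HepG2 against 113 and 143 CPM in HepG2S1 and HepG2S3, and at 133 CPM in HCC827P against 318 CPM in HCC827GR. CSF1R was at 3.23 CPM in HCC4006P2 against 43.6 CPM in HCC4006GR, and CD14 reached at most 11.4 CPM, in U100. Other markers of the list went the other way in these pairs. CSF1R was at 10.2 CPM in HCC827P against 0.772 CPM in HCC827GR. CD14 was at 1.39 CPM in HepG2 against 0.609 and 0.339 CPM in HepG2S1 and HepG2S3, and at 7.94 CPM in HCC4006P2 against 1.26 CPM in HCC4006GR. CDH5, an endothelial marker, was at 9.03 CPM in UWB1.289 against 81.4 CPM in U10 and 43.9 CPM in U100. It was also at 43.0 CPM in PancVB, 45.9 CPM in PancB1Q and 68.5 CPM in PancB1V. The part of these markers in the results was not tested. Whether each derivative descends from its named parental line was not checked beyond these markers, which touches the HepG2 pairs most, where the largest folds of MERTK and MST1R were measured. Further, fewer cells of a type and less RNA per cell cannot be told apart in bulk RNA.

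The members lie on 6 chromosomes (GRCh37, GENCODE annotation). AXL spans chr19:41725128-41767671 on the plus strand, TYRO3 chr15:41849873-41875787 (plus), MERTK chr2:112656184-112787138 (plus), GAS6 chr13:114523522-114567049 (minus), MET chr7:116312250-116438431 (plus) and MST1R chr3:49924435-49941306 (minus). Reads were counted over exons of the whole gene. Genes that overlap members held few counts, with 134 over all libraries for GAS6-AS1, antisense to GAS6, against 31105 for GAS6. To show what lies in front of the members that differed most between lines, 250 bases before the RefSeq transcription start are given, 5′ to 3′ on the gene's strand. Capitals mark the E-box CAGGTG, the sequence that ZEB and SNAI repressors of epithelial genes are known to bind, and the GC box GGGCGG, a binding sequence of SP1. Both strands were searched, and matches of one motif did not overlap those of the other.
AXL, chr19:41218973-41219222 (GRCh38.p14), plus strand: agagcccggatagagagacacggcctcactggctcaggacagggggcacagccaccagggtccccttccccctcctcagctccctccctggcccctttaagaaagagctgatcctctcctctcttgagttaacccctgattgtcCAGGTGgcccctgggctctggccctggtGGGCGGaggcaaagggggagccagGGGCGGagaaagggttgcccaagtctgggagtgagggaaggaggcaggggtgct
MERTK, chr2:111898357-111898606 (GRCh38.p14), plus strand: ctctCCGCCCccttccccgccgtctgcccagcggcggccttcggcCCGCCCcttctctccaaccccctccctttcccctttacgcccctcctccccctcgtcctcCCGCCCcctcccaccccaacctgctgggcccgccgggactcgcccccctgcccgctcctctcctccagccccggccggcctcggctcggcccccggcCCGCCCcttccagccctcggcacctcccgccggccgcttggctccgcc
GAS6, chr13:113864077-113864326 (GRCh38.p14), minus strand: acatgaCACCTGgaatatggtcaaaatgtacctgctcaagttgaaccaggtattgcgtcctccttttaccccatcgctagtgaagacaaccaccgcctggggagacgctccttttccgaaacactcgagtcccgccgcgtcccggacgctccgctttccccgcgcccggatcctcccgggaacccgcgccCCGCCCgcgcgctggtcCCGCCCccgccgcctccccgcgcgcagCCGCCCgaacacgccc
MST1R, chr3:49903874-49904123 (GRCh38.p14), minus strand: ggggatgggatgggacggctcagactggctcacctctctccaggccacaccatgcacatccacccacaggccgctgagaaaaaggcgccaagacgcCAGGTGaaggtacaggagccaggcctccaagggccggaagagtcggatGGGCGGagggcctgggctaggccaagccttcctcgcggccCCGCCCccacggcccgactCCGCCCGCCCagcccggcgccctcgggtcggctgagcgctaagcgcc
AXL, GAS6 and MST1R each held 1 E-box in this window and MERTK held 0, where 17.5% of 35116 RefSeq promoter windows held at least 1. The windows of MET and of both TYRO3 starts held 0 E-boxes, and so did that of a further AXL start downstream. GC boxes numbered 2 for AXL, 4 for MERTK, 3 for GAS6, 2 for MET and 4 for MST1R, and 42.6% of all windows held at least 1. The AP-1 sequence TGANTCA was found in 1 of the TYRO3 windows, and in 6.57% of all windows. The TEAD sequence CATTCC was found in the further AXL window, and in 11.9% of all windows. The AXL window shown was poor in CpG, with 4 such dinucleotides, whereas those of MERTK, GAS6 and MST1R held 25, 31 and 20 and the median window held 11. These matches describe the letters only.

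AXL RNA covered the widest range of the 6 members and did not move in one direction with resistance. It was 14.3-fold and 17.7-fold higher in the sorafenib-resistant lines than in HepG2 and 1.92-fold to 2.70-fold higher in the EGFR inhibitor-resistant lung lines. It was lower in the 5-fluorouracil-, olaparib- and cisplatin-resistant lines, by up to 54.2-fold in IGROV-1/CDDP. In the libraries of HepG2, AXL stood at 20.5 and 21.0 CPM, against 297 CPM in HepG2S1 and 371 and 365 CPM in HepG2S3. Each of the 3 resistant libraries was thus above both parental ones. HCC4006P1 had 551 and 834 CPM and HCC4006ER 1346 and 1580 CPM, so these libraries did not overlap either, although the parental ones were far apart. The share of all genes without such overlap is not given here, so non-overlap of so few libraries says little alone. The difference was 1.08 on the scale of log2(CPM + 1), with an SD of 0.37 over the 4 pairings of libraries. HCC4006P2 had 48.8 CPM and HCC4006GR 132 CPM, a log2 difference of 1.41 with a counting interval of 1.24 to 1.58.

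In HCC827P, AXL was at only 2.31 CPM and in HCC827GR at 4.44 CPM, from 40 and 69 counts. The log2 difference was 0.72, with a counting interval of 0.12 to 1.30. PancVB had the most AXL of all parental lines, at 1232 CPM, and PancB1Q and PancB1V had 745 and 613 CPM. UWB1.289 had 728 CPM, U10 485 CPM and U100 376 CPM. In both of these families, the parental line was above both derivatives. IGROV-1 had 23.6 CPM and IGROV-1/CDDP 0.435 CPM, from 648 and 11 counts. AXL was therefore close to the detection floor in this resistant line, and the log2 difference of -4.10 is understated by the pseudocount.

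Ordered by AXL level, HCC4006ER and PancVB led and could not be told apart by replicate spread. They were followed by a run of 8 lines from PancB1Q at 745 CPM to HepG2S1 at 297 CPM, within which no neighbours were apart. HCC4006GR, HCC4006P2, the pair of IGROV-1 and HepG2, HCC827GR, HCC827P and IGROV-1/CDDP then each stood below the one before. Neighbours were called apart when they differed by more than 2 pooled replicate SDs on the log2 scale, here 0.23 each, and when their 95% Wilson intervals did not overlap. The 2 parental lines of HCC4006 were among the lines set apart, with a mean of 692 CPM in HCC4006P1 and 48.8 CPM in HCC4006P2. VIM, the mesenchymal filament gene vimentin, was also higher in HCC4006P1, at 537 and 598 CPM against 160 CPM in HCC4006P2. ZEB1, also mesenchymal, was at 10.2 and 6.10 CPM against 0.588 CPM. The epithelial genes were not lower in replicate 2 of HCC4006P1, while the CPM of its replicate 1, given first, are raised by 22.1%. CDH1 was at 535 and 485 CPM against 482 CPM in HCC4006P2, and EPCAM at 474 and 369 CPM against 344 CPM.

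**Figure D1:**
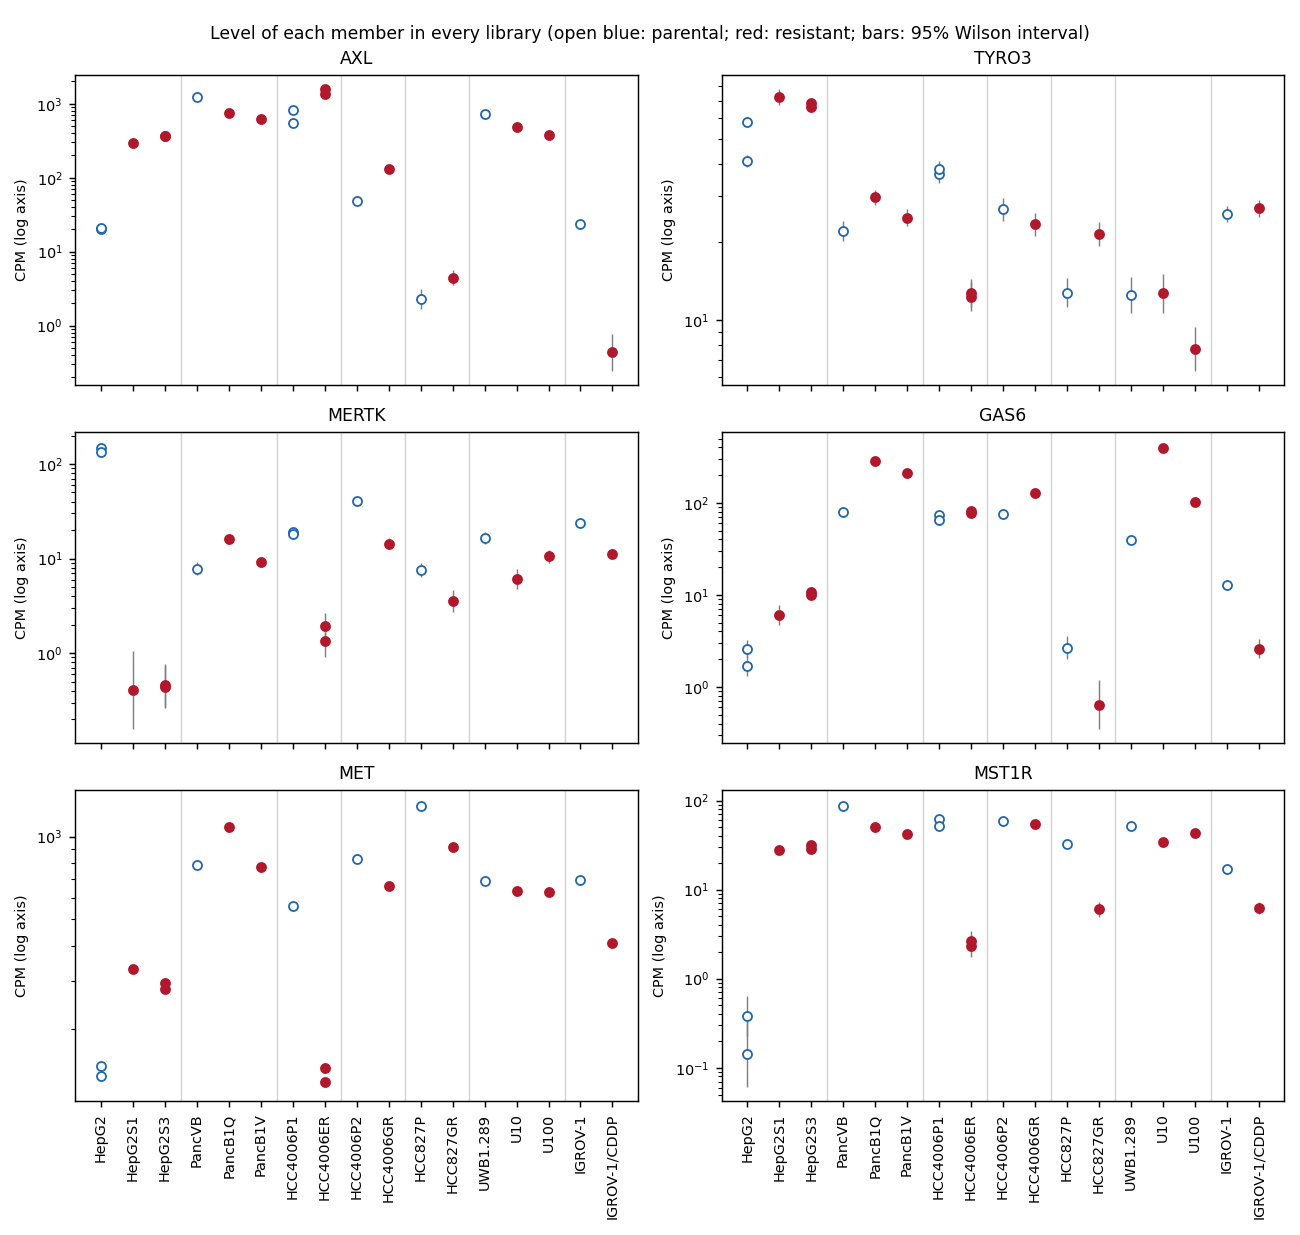
CPM of each member on a log axis in the 17 cell lines, grouped by parental line. Open blue points are parental libraries, red points are resistant libraries and bars are 95% Wilson intervals, which cover counting error only. MERTK drops from 149 and 135 CPM in HepG2 to under 1 CPM in HepG2S1 and HepG2S3, where MST1R does the opposite.

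MERTK, the TAM receptor best known from phagocytes and the retinal pigment epithelium, was highest in HepG2 and nearly lost from both of its derivatives. The HepG2 libraries had 149 and 135 CPM. HepG2S1 had 0.406 CPM from 4 counts, and the HepG2S3 libraries had 0.437 and 0.457 CPM from 14 counts each, so that the levels were 350-fold and 318-fold lower. MERTK was also 11.4-fold lower in HCC4006ER, with 18.9 and 18.3 CPM in HCC4006P1 against 1.92 and 1.34 CPM. Neither of these pairs had overlapping libraries, which again stands without the share over all genes. Smaller differences in the same direction were measured in lines with a single library. HCC4006P2 had 40.6 CPM and HCC4006GR 14.3 CPM, and HCC827P had 7.61 CPM and HCC827GR 3.54 CPM. UWB1.289 had 16.4 CPM against 6.04 CPM in U10 and 10.5 CPM in U100, and IGROV-1 had 24.0 CPM against 11.3 CPM in IGROV-1/CDDP. The exceptions were the pancreatic lines, with 7.83 CPM in PancVB, 15.9 CPM in PancB1Q and 9.22 CPM in PancB1V, and the last of these was within counting error of PancVB. In all, MERTK was lower beyond its counting interval in 8 of 10 pairs and higher in 1. These counts say little alone. Between 19.1% and 40.9% of genes were lower beyond their counting interval in each pair, and between 23.7% and 53.0% were higher.

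TYRO3, the TAM receptor known mainly from the nervous system, ran from 7.70 CPM in U100 to 72.5 CPM in HepG2S1. This 9.41-fold range was the narrowest of the 6 members, but that of MET was nearly the same at 9.53-fold. TYRO3 differed by more than 1 on the log2 scale in 1 of 10 pairs. HCC4006P1 had 36.4 and 38.3 CPM and HCC4006ER 12.3 and 12.7 CPM. HepG2 had 58.2 and 41.1 CPM, HepG2S1 72.5 CPM and HepG2S3 68.5 and 66.4 CPM, and the gap between the HepG2 libraries was larger than that between the higher one and HepG2S3. In the other lines it lay between 12.5 and 29.7 CPM except for U100, and 13 of 16 neighbouring steps in its order were not apart.

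The make-up of the TAM receptor RNA differed within several pairs. It was taken per kilobase of the canonical transcript (RPKM), as the share of AXL, TYRO3 and MERTK in their sum. MERTK made up 77.8% of this sum in HepG2, and AXL made up 87.3% and 90.2% in HepG2S1 and HepG2S3. AXL and MERTK stood level in HCC4006P2, at 42.6% and 43.7%, and AXL made up 80.8% in HCC4006GR. In HCC4006P1, HCC4006ER and all lines from PancVB and UWB1.289, AXL held between 93.9% and 99.4% whether or not the line was resistant. HCC827P and HCC827GR had little TAM receptor RNA in all, with summed levels of 4.07 and 4.53 RPKM, against 312 RPKM in HCC4006ER. There, MERTK led in HCC827P with 48.9% and TYRO3 in HCC827GR with 58.8%. In IGROV-1/CDDP the AXL share was 1.44%, against 34.5% in IGROV-1. Of its remaining RNA, TYRO3 held 52.5% by this length, but MERTK held more when the length of all annotated exons was used (51.3% against 47.1%). Shares between genes hold for reads spread over whole transcripts, which a 3′ tag library would not give.

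**Figure D2:**
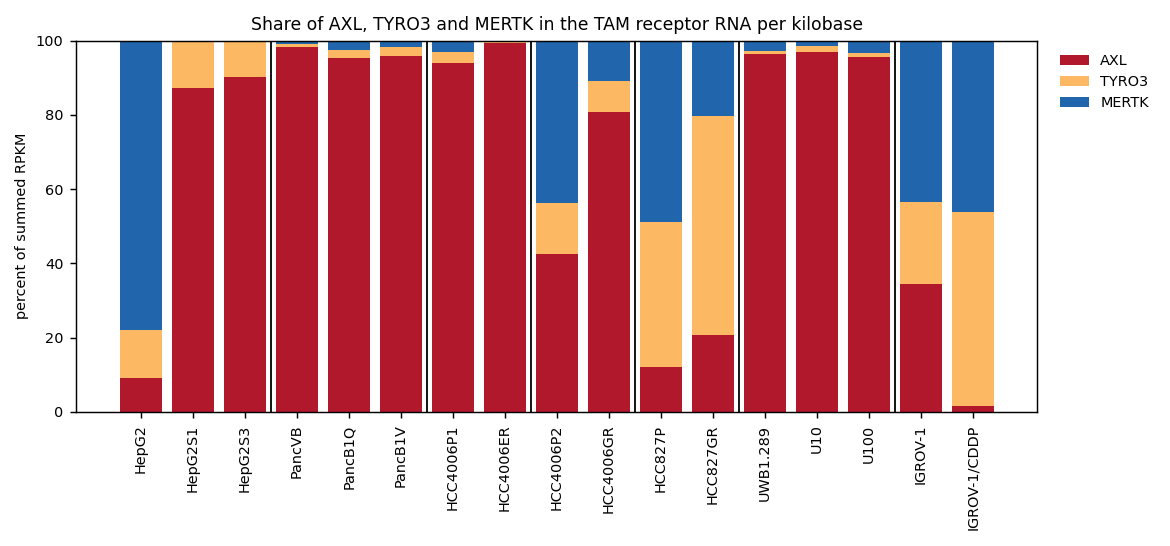
Stacked bars give the share of AXL, TYRO3 and MERTK in their summed RPKM, in percent, for each cell line, with black lines between the families of a parental line. AXL takes over from MERTK between HepG2 and its derivatives (9.21% to 87.3% and 90.2%), and it is nearly absent from IGROV-1/CDDP (1.44%).

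GAS6, the shared ligand of the TAM receptors, was higher beyond its counting interval in 8 of 10 pairs and by more than 1 in 6 of them. The first count says little alone. Between 23.7% and 53.0% of genes were higher beyond their counting interval in each pair. HepG2 had 1.69 and 2.61 CPM, HepG2S1 6.09 CPM and HepG2S3 10.0 and 10.9 CPM. PancVB had 78.9 CPM against 285 CPM in PancB1Q and 212 CPM in PancB1V. UWB1.289 had 39.8 CPM against 398 CPM in U10 and 103 CPM in U100. U10 had the highest GAS6 level of all 17 lines, with a log2 difference of 3.29 and a counting interval of 3.12 to 3.46. HCC4006P2 had 76.5 CPM and HCC4006GR 129 CPM. HCC4006P1 had 73.7 and 65.0 CPM and HCC4006ER 77.2 and 81.5 CPM, a log2 difference of only 0.19 with an SD of 0.11 over pairings. GAS6 was lower in HCC827GR, with 0.643 CPM from 10 counts against 2.65 CPM in HCC827P, and in IGROV-1/CDDP, with 2.61 CPM against 12.8 CPM in IGROV-1. In the pancreatic and UWB1.289 families, GAS6 was thus higher in the derivatives while AXL was lower. Over the 17 lines the levels of GAS6 and AXL, as log2(CPM + 1), had a Pearson's r of 0.76 and a Spearman's rho of 0.68. Their changes over the 10 pairs had an r of 0.34 and a rho of 0.15, with the same sign in 5 pairs. These values are a description only, as derivatives share their parental genome. The other TAM ligand, PROS1 (protein S), was higher by more than 1 in HepG2S3, HCC4006ER, HCC827GR, U10 and U100, and lower by more than 1 in PancB1Q and PancB1V. In these pancreatic derivatives it stood at 0.980 and 1.97 CPM, against 11.7 CPM in PancVB.

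MET was at 136 CPM or more in each of the 17 lines, and it differed by more than 1 on the log2 scale in 3 of 10 pairs. HepG2 had 134 and 147 CPM, HepG2S1 330 CPM and HepG2S3 280 and 293 CPM, so that the resistant libraries lay above the parental ones by 1.23 and 1.02 on the log2 scale. With library sizes scaled by TMM these differences were 0.91 and 0.73, both below 1. HCC4006ER stood at the other end, with 128 and 144 CPM against 559 CPM in the one measured HCC4006P1 library, 4.11-fold lower. In the gefitinib-resistant lines, MET was lower than in the parental line, with 662 CPM in HCC4006GR against 828 CPM in HCC4006P2, and 918 CPM in HCC827GR against 1295 CPM in HCC827P. HCC827P had the highest MET level measured. PancB1Q, at 1084 CPM, was above PancVB at 787 CPM, and PancB1V, at 779 CPM, was within counting error of it. U10 and U100, at 632 and 628 CPM, differed from UWB1.289 at 690 CPM by less than 0.14 on the log2 scale, and IGROV-1/CDDP, at 410 CPM, was 1.70-fold below IGROV-1 at 697 CPM. HGF, the MET ligand, was found at 19.2 CPM in HCC827P and 23.6 CPM in HCC827GR, and had at most 3 counts in every other library. A count of 3 stood for 0.199 CPM in HCC4006GR, and replicate 1 of HCC4006P1 gave no measurement of HGF.

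MST1R was under 1 CPM in HepG2 and was higher in its derivatives by 107-fold and 115-fold. These folds rest on few counts, and without replicate 1 of HepG2 they were 196-fold and 211-fold. The HepG2 libraries had 0.382 and 0.143 CPM, from 14 and 5 counts, whereas HepG2S1 had 28.1 CPM and HepG2S3 had 32.1 and 28.4 CPM. The direction was opposite in HCC4006ER, with 2.33 and 2.62 CPM against 62.8 and 51.8 CPM in HCC4006P1, and in HCC827GR, with 5.98 CPM against 32.9 CPM in HCC827P. PancVB had the highest level of all lines, at 86.9 CPM, against 50.9 CPM in PancB1Q and 41.8 CPM in PancB1V. IGROV-1 had 16.9 CPM and IGROV-1/CDDP 6.25 CPM. U10 and U100, at 34.2 and 42.9 CPM, were closer to UWB1.289, at 51.1 CPM, and HCC4006GR, at 54.1 CPM, was within counting error of HCC4006P2 at 59.7 CPM. MST1, the MST1R ligand and a secreted liver protein, went the other way in the HepG2 family, with 67.8 and 56.0 CPM in HepG2, 3.55 CPM in HepG2S1 and 4.00 and 3.33 CPM in HepG2S3. Reads of MST1 may be shared with near-identical pseudogenes, so its level is uncertain.

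**Figure D3:**
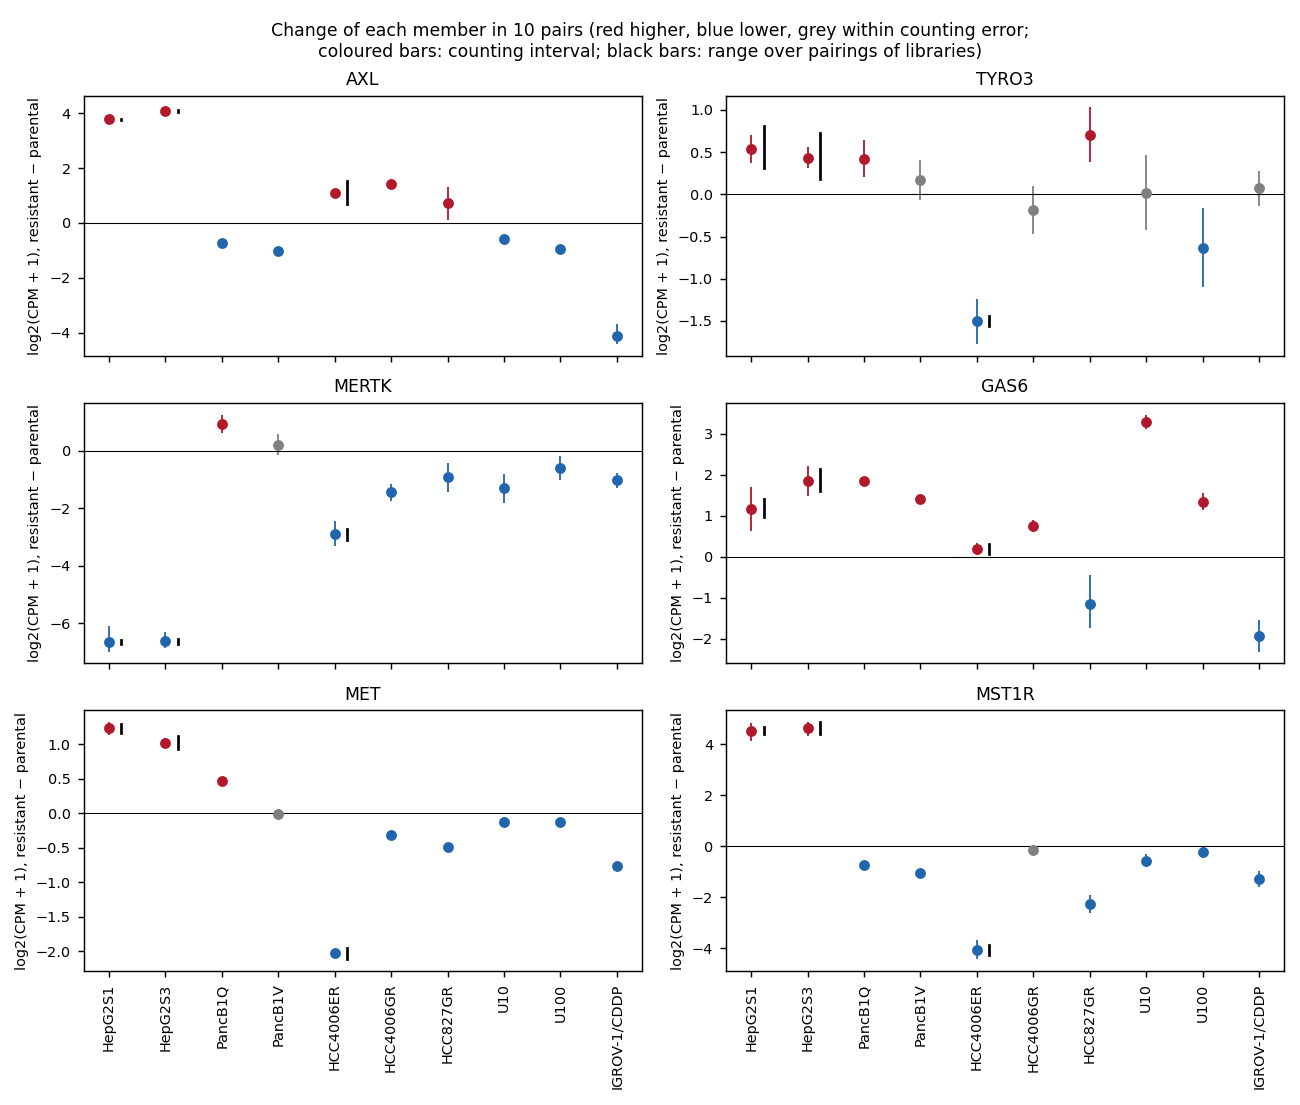
Change of each member in the 10 pairs as log2(CPM + 1) of the resistant minus the parental line. Coloured bars are counting intervals, with red for higher, blue for lower and grey for within counting error, and black bars are the range over pairings where a line had 2 libraries. AXL runs from 4.08 in HepG2S3 to -4.10 in IGROV-1/CDDP, and GAS6 is above 0 in 8 pairs. In each of the 10 pairs, 23.7% to 53.0% of all genes were higher beyond their counting interval.

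Taken pair by pair, a change of more than 1 on the scale of log2(CPM + 1) was set beside the share of all genes with at least 1 CPM in either line that passed the same limit. In HepG2S1, 4 of 6 members were higher (AXL, GAS6, MET, MST1R) and 1 was lower (MERTK), against 25.6% and 18.7% of genes. In HepG2S3, these 4 members were again higher and MERTK lower, against 27.8% and 17.8%. Both sorafenib-resistant lines share the HepG2 libraries as their control. In PancB1Q, 1 member was higher (GAS6) and 0 were lower, against 6.1% and 9.44% of genes. In PancB1V, 1 was higher (GAS6) and 2 were lower (AXL, MST1R), against 8.92% and 7.41%. In HCC4006ER, 1 was higher (AXL) and 4 were lower (TYRO3, MERTK, MET, MST1R), against 11.9% and 11.9%. In HCC4006GR, 1 was higher (AXL) and 1 was lower (MERTK), against 7.99% and 7.64%. In HCC827GR, 0 were higher and 2 were lower (GAS6, MST1R), against 10.7% and 7.83%. In U10, 1 was higher (GAS6) and 1 was lower (MERTK), against 6.48% and 5.12%, and in U100 1 was higher (GAS6) and 0 were lower, against 6.64% and 1.77%. In IGROV-1/CDDP, 0 were higher and 4 were lower (AXL, MERTK, GAS6, MST1R), against 5.67% and 7.32%. The median change of the 6 members was 1.20 in HepG2S1 and 1.44 in HepG2S3, beside 0.24 and 0.29 over all genes, and -1.77 in HCC4006ER and -1.17 in IGROV-1/CDDP, beside -0.01 and -0.05. In the other 6 pairs it lay between -0.71 and 0.44. With TMM scaling the median over all genes was -0.05 in HepG2S1 and 0.03 in HepG2S3, while that of PancB1Q went from -0.11 to 0.07. No difference beyond its counting interval changed sign with that scaling, but several lay on the other side of 1. AXL in PancB1V (-0.94), MERTK in IGROV-1/CDDP (-0.97), MST1R in PancB1V (-0.97), GAS6 in HepG2S1 (0.98) and MET in both HepG2 derivatives were then within it, and AXL in U100 (-1.03) and MERTK in PancB1Q (1.13) were then beyond it.

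HepG2S3 and HCC4006ER could be tested against their parental lines, with 2 libraries on each side and the quasi-likelihood test of edgeR, adjusted over all genes. Nothing says that the libraries came from separate cultures, so the p-values measure the spread between libraries. In HepG2S3, AXL rose by 3.83 on the log2 scale (SE 0.13, adjusted p = 3.9e-05), MST1R by 6.50 (SE 0.40, adjusted p = 0.00015), GAS6 by 1.96 (SE 0.28, adjusted p = 0.0024) and MET by 0.71 (SE 0.12, adjusted p = 0.0047). MERTK fell by 8.62 (SE 0.19, adjusted p = 2.6e-05). TYRO3 had a log2 fold change of 0.12 (SE 0.20, adjusted p = 0.62). The 4 members that rose stand beside 31.4% of 16929 genes that did, and the 1 that fell beside 32.1%, so that passing the test was common in this pair. The call for MET was lost when replicate 1 or replicate 2 of HepG2S3 was left out (adjusted p = 0.0501 and 0.068 in edgeR), and TYRO3 passed without replicate 1 of HepG2 (log2 fold change 0.40).

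In HCC4006ER, AXL rose by 1.08 (SE 0.30, adjusted p = 0.025 in edgeR). MST1R fell by 4.48 (SE 0.17, adjusted p = 1.1e-05), MERTK by 3.47 (SE 0.25, adjusted p = 0.00011) and TYRO3 by 1.55 (SE 0.19, adjusted p = 0.00094). GAS6 had a log2 fold change of 0.24 (SE 0.13, adjusted p = 0.17). Here 24.1% of 12791 genes rose and 24.9% fell, beside 1 and 3 of the 5 members tested. The size of the AXL change turned on the parental library, at 0.64 without replicate 1 of HCC4006P1 and 1.63 without replicate 2. MET could not be tested in this fit. In a fit over all 17 lines without replicate 1 of HCC4006P1, its log2 fold change was -2.25 (SE 0.14, adjusted p = 7.5e-05 in edgeR), under the assumption that the lone parental library varied like those of other lines.

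The changes in both pairs differed for each of the 5 members tested. The difference, as the HepG2S3 minus the HCC4006ER log2 fold change, was 11.0 for MST1R, 2.79 for AXL, 1.75 for GAS6, 1.70 for TYRO3 and -5.12 for MERTK, with edgeR adjusted p-values between 1.7e-07 and 0.0011. Among 14478 genes, 28.2% had a positive and 27.7% a negative difference past the same threshold. AXL and MERTK went the same way in both pairs and differed in size, whereas MST1R went opposite ways.

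No member passed a test over all families. With the libraries of each of 7 parental lines and of its derivatives summed into 14 profiles, and the parental line as a block, edgeR called 0 of 19829 genes (0%), while 920 had an unadjusted p under 0.05. DESeq2 called 81 genes higher and 21 lower, none of them a member. The log2 fold change of MERTK was -1.76 (SE 0.96, adjusted p = 0.99 in edgeR), with MERTK lower in 6 of 7 families. An exact two-sided sign-flip permutation test of its 7 mean log2(CPM + 1) differences gave an unadjusted p = 0.031. By the same exact test the other members had p-values between 0.42 and 0.86, and AXL, higher in 4 families and lower in 3, had p = 0.80. These 6 p-values were not adjusted for one another, and the smallest that 7 families allow is 0.0156. HCC4006P1 and HCC4006P2 go back to the same cell line, and with their changes averaged as 1 family MERTK was lower in 5 of 6 families, with an exact sign-flip p = 0.0625. In edgeR, with both summed as 1 line, 0 genes were called and the log2 fold change of MERTK was -1.62.

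AXL and MET were then compared between the families with EGFR inhibitor-resistant derivatives, HCC4006P1, HCC4006P2 and HCC827P, and the other 4. AXL changed by a mean of 1.07 ± 0.35 (SD, n = 3) in the former and -0.45 ± 3.30 (SD, n = 4) in the latter, and an exact two-sided permutation test over 35 splits gave p = 0.51. MET changed by -0.95 ± 0.94 (SD, n = 3) and 0.11 ± 0.79 (SD, n = 4), with p = 0.20 by the same exact test. The remaining members had an exact p of 0.26 or more. With HCC4006P1 and HCC4006P2 averaged as 1 family, all 6 members had an exact p of 0.27 or more over 15 splits, which allow no p under 0.0667. EGFR itself was at 7113 CPM in HCC827P and 7069 CPM in HCC827GR, at 962 and 1192 CPM in HCC4006P2 and HCC4006GR, and at 1036 CPM in the measured HCC4006P1 library against a mean of 198 CPM in HCC4006ER. In the HepG2 family, EGFR was 15.1-fold and 18.0-fold higher in HepG2S1 and HepG2S3.

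Of 23 other genes of the TAM, MET and MST1R pathways, 22 were tested in HepG2S3, where 4 rose, 13 fell and 5 did not pass, beside 31.4% and 32.1% of all genes. In HCC4006ER 20 were tested, and 3 rose, 12 fell and 5 did not pass, beside 24.1% and 24.9% of all genes. The median log2 fold change of the list was -0.64 and -0.66 in edgeR, beside -0.01 and 0.01 over all genes tested. Among genes that activate HGF and MST1 or inhibit these proteases, 4 of 5 fell in HepG2S3 and 3 of 4 tested fell in HCC4006ER. HPN (hepsin) and HGFAC, both liver serine proteases that cut HGF, fell in HepG2S3 by 11.1 and 10.0. ST14 (matriptase) fell by 2.27 in HepG2S3 and fell by 8.70 in HCC4006ER. Its inhibitor SPINT1 fell by 3.94 in HepG2S3 and fell by 6.33 in HCC4006ER. SPINT2, a related inhibitor, rose by 6.05 in HepG2S3 and fell by 1.87 in HCC4006ER. Both shedding proteases, ADAM10 and ADAM17, fell in HCC4006ER, by 0.81 and 0.66, while in HepG2S3 ADAM10 fell by 0.70 and ADAM17 had a log2 fold change of 0.33 that did not pass. Of the TAM ligand PROS1 and the enzymes of vitamin K dependent carboxylation, PROS1 rose by 0.97 in HepG2S3 and by 2.32 in HCC4006ER. The HCC4006P1 libraries were far apart for PROS1, at 23.3 and 7.18 CPM, and the log2(CPM + 1) difference ran from 1.35 to 3.29 over pairings. GGCX fell by 1.20 in HepG2S3 and VKORC1 rose by 1.03 in HCC4006ER.

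Among the partner receptors, ERBB3, a kinase-poor partner of EGFR and MET, was lower in each of the 10 pairs, by 0.31 in IGROV-1/CDDP to 5.97 in HCC4006ER on the scale of log2(CPM + 1). In each pair, 19.1% to 40.9% of genes were lower beyond their counting interval. ERBB3 was picked out for its direction, some pairs share a parental line, and the share of genes lower in every pair is not given here. In edgeR ERBB3 fell by 6.01 in HepG2S3 and fell by 6.82 in HCC4006ER. ERBB2 fell by 1.25 in HepG2S3 and fell by 1.51 in HCC4006ER. CD44, a co-receptor of MET, rose by 10.8 in HepG2S3 and fell by 3.86 in HCC4006ER, which was the same pair of directions as MST1R. EGFR rose by 3.86 in HepG2S3. Adaptors had smaller changes. GRB2, GAB1 and CRK fell by 0.58, 0.91 and 0.37 in HepG2S3, and in HCC4006ER GAB1 fell by 0.88, CBL fell by 0.66, SHC1 fell by 0.46 and CRK fell by 0.43. These small changes depended on the number of libraries, as GRB2, GAB1, CRK and ADAM10 did not pass in HepG2S3 without either of its replicates, nor SHC1, CRK, CBL and ADAM17 in HCC4006ER without either of its replicates. Without replicate 1 of HCC4006P1, the log2 fold changes in HCC4006ER were -0.54 for ADAM10 and -0.46 for GAB1. LRIG1, an inhibitor of receptor kinases, fell by 3.14 in HepG2S3 and rose by 4.52 in HCC4006ER.

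**Figure D4:**
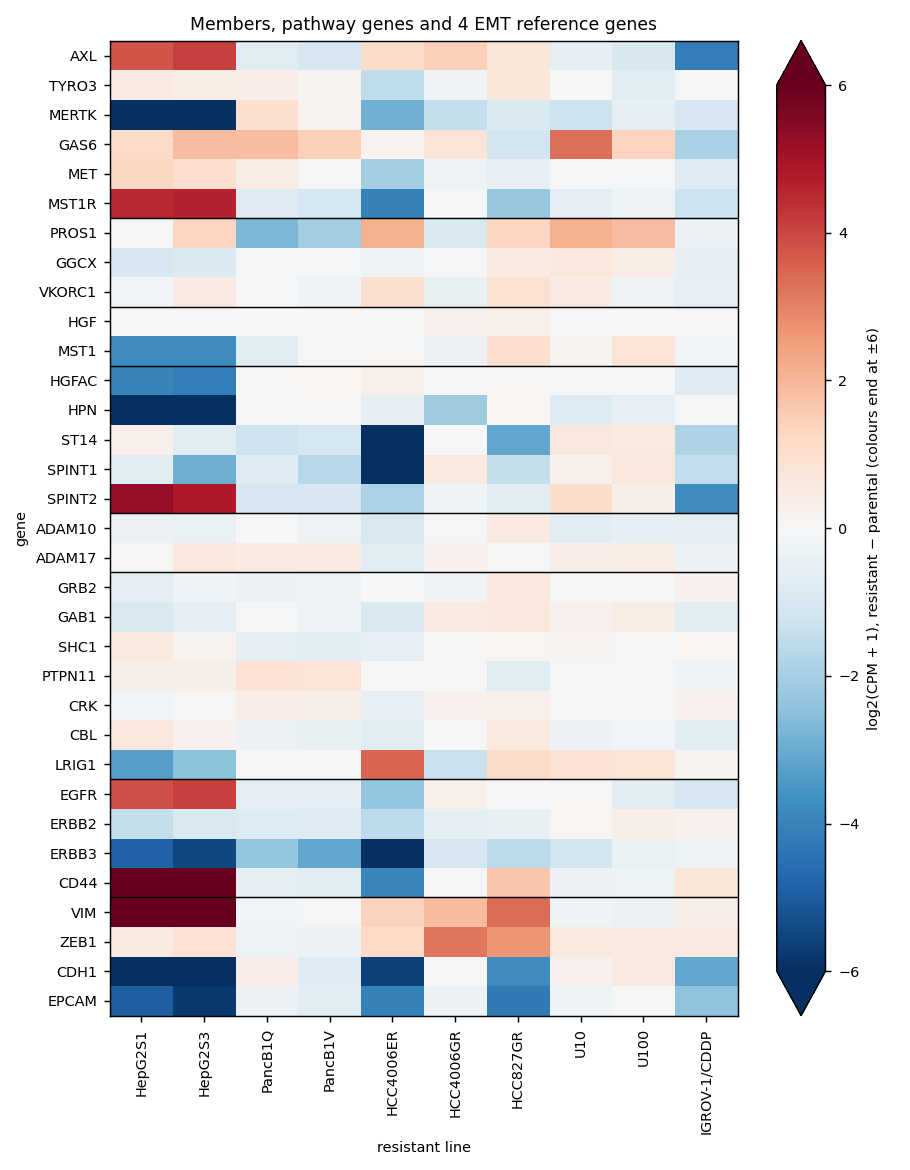
Colours give the change in log2(CPM + 1) of the resistant minus the parental line for the 6 members, 23 pathway genes and 4 reference genes of the epithelial and mesenchymal states, with red for higher and blue for lower and colours ending at 6 and -6. ERBB3 is blue in all 10 columns, from -5.97 to -0.31. In each pair, 19.1% to 40.9% of all genes were lower beyond their counting interval.

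Beside AXL, VIM and ZEB1 (mesenchymal genes) and CDH1 and EPCAM (epithelial genes) were used as references. In HepG2S3, VIM rose by 13.1 and CDH1 and EPCAM fell by 8.40 and 6.54, and in HCC4006ER VIM rose by 1.40 and CDH1 and EPCAM fell by 5.70 and 4.07 (edgeR). The log2(CPM + 1) difference of VIM was 1.91 in HCC4006GR and 3.34 in HCC827GR, where AXL was higher too. The epithelial references differed between these pairs. CDH1 was at 482 CPM in HCC4006P2 and 499 CPM in HCC4006GR, and EPCAM was at 344 and 270 CPM. In HCC827P and HCC827GR, CDH1 was at 748 and 53.3 CPM and EPCAM at 480 and 24.1 CPM. In IGROV-1/CDDP, VIM was higher by 0.34 and CDH1 and EPCAM were lower, with 0.593 and 0.316 CPM left, while AXL was also lower. U10 and U100 had VIM differences of -0.25 and -0.34. Over the 17 lines, the levels of AXL and VIM had a Pearson's r of 0.45 and a Spearman's rho of 0.55. With the other references AXL had an r of -0.11 for ZEB1 (rho -0.0049), -0.26 for CDH1 (rho -0.26) and 0.26 for EPCAM (rho 0.22). The levels of MERTK had an r of -0.65 with VIM (rho -0.46) and -0.27 with ZEB1 (rho -0.23). With CDH1 their r was 0.52 (rho 0.46) and with EPCAM 0.46 (rho 0.32). Over the 10 pairs, changes of AXL had an r of 0.84 with VIM (rho 0.75) and 0.30 with ZEB1 (rho 0.72). With CDH1 their r was -0.60 (rho -0.60) and with EPCAM -0.63 (rho -0.54). Changes of MERTK had an r of -0.93 with VIM (rho -0.71) and -0.10 with ZEB1 (rho -0.65). With CDH1 their r was 0.84 (rho 0.75) and with EPCAM 0.80 (rho 0.55). These values are a description only, as some pairs share a parental line.

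The genes with levels most like those of each member over 17 lines were sought among 10260 protein-coding genes, or 12043 for MET. For AXL they were SIM2 (Pearson's r = 0.91), CCDC9B (0.89) and CYBRD1 (0.88), and for GAS6 they were CYTH3 (0.92), ZNF502 (0.92) and again CCDC9B (0.89). For MERTK they were STRN3 (0.88), SNX6 (0.85) and LCOR (0.84), and for TYRO3 NOP10 (0.93), ETFA (0.92) and RAB20 (0.88). For MET they were KIF2A (0.87), F3 (0.85) and KLHL29 (0.84), and for MST1R SH2D3A (0.87), CBX3 (0.87) and ALS2CL (0.86). CCDC9B was thus among the 3 most alike genes of both AXL and GAS6. These values describe 17 lines that are not independent, and the highest of so many values is high by selection.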

How the data were processed

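The authors sequenced RNA of 21 cell line libraries and deposited raw counts of reads per gene for each. The labels give a stranded mRNA kit, the study's methods also name a 3′ kit without saying for which libraries, and the processing notes name Bowtie, TopHat, SAMtools, HTSeq and hg19, with versions not given in the sources used here. Rows for unassigned, ambiguous and multiply aligned reads, 28.0% to 42.8% of the counted reads, were left out. Gene IDs were matched to GENCODE for GRCh37 (84.3% of 53515), and promoter sequences came from RefSeq on GRCh38.p14.

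The study's methods scale counts to the total read count as CPM and take log2 fold changes of these. Here CPM were computed from the total on genes, replicates were averaged, and differences were taken as log2(CPM + 1). Intervals are 95% Wilson intervals, and counting intervals combine the bounds of both lines. Both cover counting error only. The quasi-likelihood test of edgeR 4.0.16 (R 4.3.3, limma 3.58.1) was used after TMM scaling and filterByExpr, and genes were called at 0.05 after Benjamini-Hochberg adjustment over all genes tested. HCC4006 fits left out genes of the stretch without counts and genes of unknown position, and the fit over 7 parental lines left out replicate 1 of HCC4006P1. Exact permutation tests used 1 value per parental line. Python 3.11.15 with numpy 2.4.6, pandas 2.3.3, scipy 1.17.1 and matplotlib 3.10.9 was used, and the tests were tested on simulated counts.

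Samples were grouped by the cell line label, and replicates numbered by its letters A and B. The titles number the HepG2 and HepG2S3 libraries differently, so replicate pairing there is unsure. Alternatives used DESeq2 1.42.0, a pseudocount of 0.1, TMM sizes, totals outside the stretch, no filter, a replicate block, 1 fit of all lines and each library or family left out. The members, gene lists and tests were chosen with earlier results of these data known. Named genes are the members, a list of 23 pathway genes, VIM, ZEB1, CDH1 and EPCAM, marker genes, and the 3 genes most alike to each member among protein-coding genes with at least 5 CPM in at least 3 lines. Leaving out the HepG2 pairs, the length of all exons, folds without 1 library and exact tests with HCC4006P1 and HCC4006P2 as 1 line were alternatives chosen after seeing the data.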

Additional observations from a re-analysis of the deposited data

Results flagged for a closer look

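The changes in the sorafenib-resistant HepG2S3 and the erlotinib-resistant HCC4006ER differed in the edgeR test of the difference for 5 members, by 2.79 on the log2 scale for AXL, 1.70 for TYRO3, -5.12 for MERTK, 1.75 for GAS6 and 11.0 for MST1R (HepG2S3 minus HCC4006ER). Such differences were common, as 28.2% and 27.7% of all genes passed in each direction.

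Further differences were sought among the 4 families with more than 1 resistant library (HepG2, PancVB, HCC4006P1 and UWB1.289), and were picked out because all derivatives of one parental line moved up and all of another moved down, each beyond its counting interval, and these differences were not tested. As differences of mean log2(CPM + 1) changes, AXL gave 4.80 between the derivatives of HepG2 and PancVB, 4.70 between those of HepG2 and UWB1.289, -1.94 between those of PancVB and HCC4006P1, and 1.84 between those of HCC4006P1 and UWB1.289. MET gave 3.16 between the derivatives of HepG2 and HCC4006P1, where the parental level rests on 1 library, and 1.26 between those of HepG2 and UWB1.289. MST1R gave 5.48 between the derivatives of HepG2 and PancVB, and 4.99 between those of HepG2 and UWB1.289. No family stood apart from the other 6 for any member by Dixon's test.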

How the results depend on the processing

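With the replicate block, all members kept their calls in HepG2S3, HCC4006ER and the difference of both (AXL 3.83 and 1.15 on the log2 scale), while the block moved the genes called in HCC4006ER from 3084 up and 3182 down to 3873 and 3914. Replicates with the same letter correlated by 0.03 between HepG2 and HepG2S3 and by 0.44 between HCC4006P1 and HCC4006ER. No label ties A to A or B to B across lines, and with 2 libraries a line the pairing could not be established in either pair. Without the HepG2 pairs, 6 rather than 14 member changes were higher by over 1 and 14 rather than 16 were lower, of 48. With the genes of the stretch kept, HCC4006ER had 1673 genes up and 1744 down, 0 members up, and AXL lost its call (log2 fold change 1.05, adjusted p = 0.19 in edgeR). Leaving out 1 library gave 1990 to 4924 genes up and 2061 to 4931 down there, and 1 to 2 members up, since GAS6 passed without replicate 2 of HCC4006P1 (0.32, adjusted p = 0.013 in edgeR). Over 7 parental lines, DESeq2 called 81 genes higher and 21 lower against 0 in edgeR. No member change that passed a test or lay beyond its counting interval reversed under these alternatives. Limits are the single libraries of 13 lines, for which only counting error is known, and the levels of MERTK, MST1R, GAS6 and AXL near the floor of 3 counts, where folds are imprecise.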
